A study of Homo sapiens with 4 samples.

Results

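The genes described are the aminoacyl-tRNA synthetases of the cytosol and of mitochondria, with the non-enzymatic factors of the cytosolic multi-synthetase complex. They were chosen by symbol: a feature of the array was taken where its annotation gave exactly 1 of 38 listed symbols. This found 32 genes among the 17687 named genes measured, namely 16 of 19 cytosolic enzymes, 15 of 16 mitochondrial enzymes and 1 of 3 complex factors, each with a single feature. MARS1, QARS1, VARS1, TARS2, AIMP2 and EEF1E1 were not analysed here. Total RNA came from NB4-R4, a human acute promyelocytic leukaemia line resistant to all-trans retinoic acid, and was measured on 4 Affymetrix arrays. In 2 cultures the cells had received the vehicle DMSO, and in the other 2 they had received MK-8776, an inhibitor of the checkpoint kinase CHK1, at 4 µM, all for 96 h. NB4-R4 is a single subclone, RNA was taken from live cells only, and the labels call the replicates biological without saying how the cultures were kept apart, so a p-value reflects the spread of these arrays alone.

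Each synthetase attaches 1 kind of amino acid to its tRNA and thereby supplies the ribosome. Mitochondria make their few proteins on their own ribosomes, and most of their synthetases are encoded by separate nuclear genes, which carry the suffix 2. GARS1 and KARS1 serve both compartments from a single gene and were counted as cytosolic. In the cytosol several synthetases are held in the multi-synthetase complex by scaffold proteins such as AIMP1, while the others act as free enzymes. Many cytosolic synthetase genes are known targets of ATF4, the transcription factor of the amino acid stress response, and WARS1 is known for its induction by interferon.

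The tryptophan pair carried the calls among these genes, so the sequences before its start sites are shown. They are the 250 bases before each start in RefSeq (GRCh38.p14), read 5′ to 3′ on the minus strand. WARS1 has a start at the end of the gene (chr14:100376328-100376577) and another 980 bases further into it (chr14:100375348-100375597), and WARS2 is shown for its outermost start (chr1:119140673-119140922). Capitals mark matches to 3 motifs searched on both strands, TGATGNAAN (the amino acid response element bound by ATF4), CACGTG (the E-box) and GAAA repeated after any 2 bases (the core of the interferon-stimulated response element, added after the values of WARS1 were seen).
WARS1 outer start: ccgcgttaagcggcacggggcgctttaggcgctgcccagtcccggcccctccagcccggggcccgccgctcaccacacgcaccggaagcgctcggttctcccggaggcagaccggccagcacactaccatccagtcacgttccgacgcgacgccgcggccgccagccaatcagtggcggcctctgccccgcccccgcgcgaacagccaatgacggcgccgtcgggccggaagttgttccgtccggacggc
WARS1 inner start: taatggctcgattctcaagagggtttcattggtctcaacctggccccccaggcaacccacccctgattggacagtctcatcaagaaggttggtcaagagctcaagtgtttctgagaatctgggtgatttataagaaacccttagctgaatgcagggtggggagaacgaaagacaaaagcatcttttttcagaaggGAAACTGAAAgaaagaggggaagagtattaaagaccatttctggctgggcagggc
WARS2 start: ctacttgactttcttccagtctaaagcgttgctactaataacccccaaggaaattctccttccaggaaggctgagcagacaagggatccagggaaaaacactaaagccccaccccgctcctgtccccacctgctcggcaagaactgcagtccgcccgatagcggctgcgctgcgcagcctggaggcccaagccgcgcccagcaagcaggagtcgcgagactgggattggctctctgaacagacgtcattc
The inner WARS1 start held a match to the repeated GAAA, GAAACTGAAA, 55 bases before it, and neither of the other sequences shown held any of the 3 motifs. The repeated GAAA occurred in 3.02% of the 35116 promoters searched and in 3 of the 39 promoters of members, or 7.69%. These belong to 2 genes, WARS1 and EARS2, and the overlapping promoters of EARS2 share the same match. A single feature reports on WARS1 as a whole, so these data do not tell its starts apart.

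Of the 32 genes 1 rose, 1 fell and 30 did not pass the threshold, an adjusted p of 0.05 in a limma fit over all genes, which 3.69% of all genes passed. At an unadjusted p under 0.05 there were 9, against 18.8% of all genes. The change was below 0 in 19 members and above it in 13, against 49.2% and 50.3% of all genes, and the median change was -0.215, against 0.005. It lay below -0.5 in 8 members, against 11.8% of all genes. Both treated arrays lay on the same side of both controls in 18 of the 32, against 48.2% of all genes, higher in 2 and lower in 16.

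WARS1, the cytosolic tryptophanyl-tRNA synthetase gene, was higher and WARS2, its mitochondrial counterpart, was lower after MK-8776. Values are RMA expression on the log2 scale, and a change is the mean of the MK-8776 arrays minus the mean of the DMSO arrays. WARS1 (feature TC1400010195.hg.1, chromosome 14, 100333790 to 100376327) measured 14.68 and 14.22 in DMSO and 15.64 and 15.48 in MK-8776. Both treated arrays lay above both controls, and the change was 1.11 (SE 0.23, 95% interval 0.57 to 1.65), or 2.16-fold, at adjusted p = 0.0405 in the limma fit over all genes. WARS2 (feature TC0100018471.hg.1, chromosome 1, 119031216 to 119140672) measured 8.92 and 9.12 in DMSO and 8.05 and 8.08 in MK-8776. The groups did not overlap here either, and the treated arrays differed by less than the controls. The change of WARS2 was -0.955 (SE 0.21, 95% interval -1.43 to -0.48), a 1.94-fold lower level, at adjusted p = 0.0453 (limma). Both calls sit close to the threshold of 0.05. With all 21448 features tested the adjusted p was 0.0503 for WARS1 and 0.0552 for WARS2 (limma). After quantile normalization that of WARS2 was 0.0571 (limma). Fits with 1 array left out called few or no genes of any kind, so they cannot judge the call of a single gene. Over 12 alternatives the change of WARS1 ran from 0.88 to 1.34 with adjusted p from 0.00177 to 0.434, and that of WARS2 from -1.06 to -0.855 with adjusted p from 0.0253 to 0.426 (limma).

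**Figure D1:**
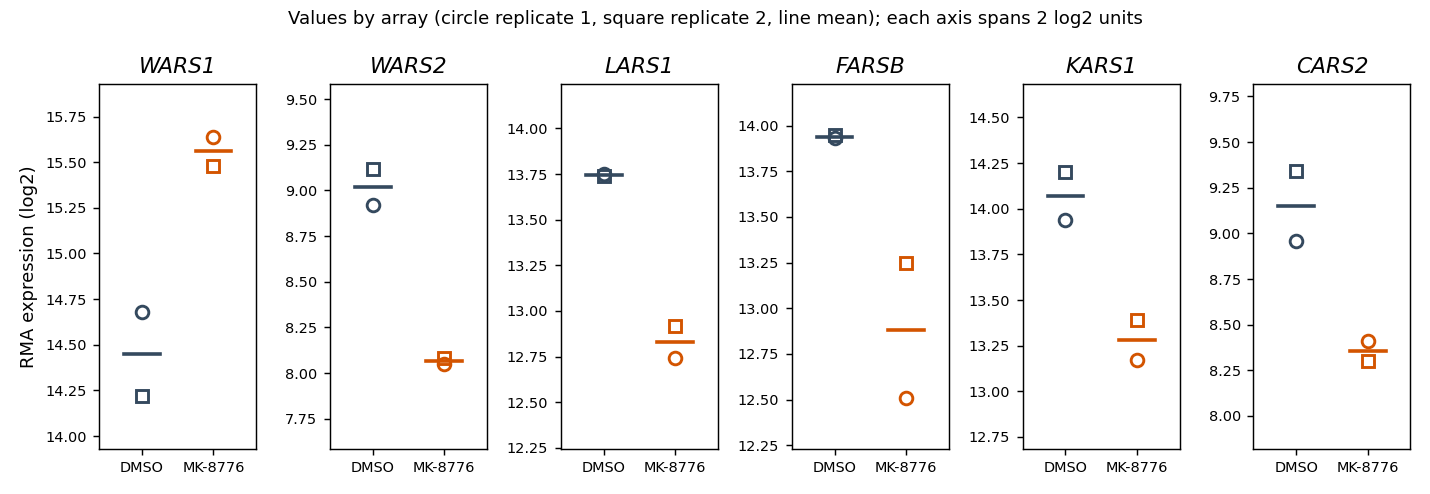
RMA expression (log2, y axis) of 6 synthetase genes on each array, with DMSO and MK-8776 on the x axis, circles for replicate 1, squares for replicate 2 and lines for group means. Every y axis spans the same distance, and in each of the 6 genes the treated arrays lie wholly to one side of the controls, above them in WARS1 and below them in the other 5.

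Of the 16 cytosolic enzymes 1 rose, 0 fell and 15 did not pass. Of all genes tested, 1.66% rose and 2.02% fell, and a single call among 16 genes is not read as a result about the class. At an unadjusted p under 0.05 (limma), 1 was higher and 3 were lower, against 8.61% and 10.2% of all genes. The median change was -0.14, against 0.005 for all genes, and 7 changes lay above 0 and 9 below it. The arrays did not overlap in 9 of the 16, with the treated arrays higher in 1 and lower in 8, against 24.0% and 24.2% of all genes.

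The 3 cytosolic genes with an unadjusted p under 0.05 and a lower level were FARSB, LARS1 and KARS1. LARS1 encodes leucyl-tRNA synthetase, which also acts as a leucine sensor upstream of mTORC1. It measured 13.75 and 13.74 in DMSO and 12.74 and 12.92 in MK-8776. The groups were far apart relative to their own spread, and the change of -0.915 (SE 0.21) just missed the threshold at adjusted p = 0.0514 (limma). FARSB encodes the beta subunit of phenylalanyl-tRNA synthetase. Its values were 13.93 and 13.95 in DMSO against 12.51 and 13.25 in MK-8776. The controls were nearly equal while the treated arrays had an SD of 0.52, and the change was -1.06 (SE 0.27, adjusted p = 0.0764, limma). FARSA, which encodes the alpha subunit of the same enzyme, measured 12.67 and 12.80 in DMSO and 12.78 and 12.86 in MK-8776, so the groups overlapped and its change was 0.085. KARS1, the lysyl-tRNA synthetase gene of both compartments, measured 13.94 and 14.20 in DMSO and 13.17 and 13.39 in MK-8776, with a change of -0.79 (SE 0.22, adjusted p = 0.0934, limma). With a variance trend in limma these 3 genes passed, at adjusted p = 0.00377 for LARS1, 0.0105 for FARSB and 0.0102 for KARS1, within ranges over the 12 alternatives of 0.00377 to 0.423, 0.0105 to 0.486 and 0.0102 to 0.486.

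The other cytosolic enzymes changed by between -0.35 and 0.26, and none of them reached an unadjusted p of 0.05. RARS1, the arginyl-tRNA synthetase gene, measured 10.87 and 11.31 in DMSO and 10.78 and 10.70 in MK-8776, and changed by -0.35 (SE 0.23, adjusted p = 0.480, limma). EPRS1, whose product joins the glutamyl and prolyl enzymes in 1 chain, and YARS1, the tyrosyl enzyme gene, both changed by -0.28. HARS1, the histidyl enzyme gene, changed by -0.265, IARS1, the isoleucyl enzyme gene, by -0.195 and CARS1, the cysteinyl enzyme gene, by -0.09. On the other side of 0 lay NARS1 (asparaginyl, 0.26), AARS1 (alanyl, 0.245), SARS1 (seryl, 0.065), GARS1 (glycyl, 0.03) and TARS1 (threonyl, 0.015). The 95% intervals of these 5 had lower ends between -0.48 and -0.29 and upper ends between 0.51 and 0.85. With 2 arrays per group, changes inside these intervals are therefore not excluded for these genes.

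**Figure D2:**
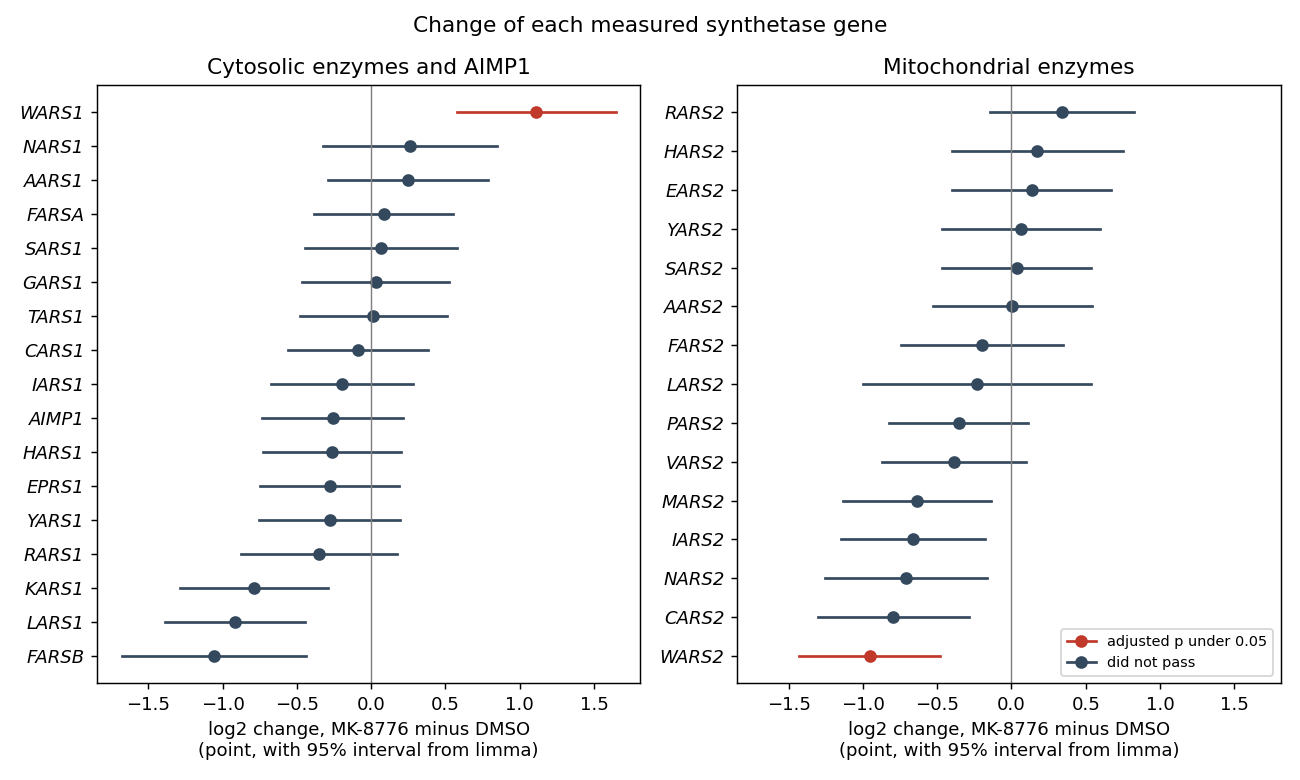
Change of each of the 32 measured genes (log2, MK-8776 minus DMSO, x axis), as a point with its 95% interval from limma, sorted by size. WARS1 at 1.11 and WARS2 at -0.955 are the genes that passed; FARSB, LARS1, KARS1 and 4 further mitochondrial genes have intervals below 0 without passing after adjustment.

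The cytosolic enzymes of the multi-synthetase complex lay lower after MK-8776 in every measured case. EPRS1, IARS1, KARS1, LARS1 and RARS1 all had both treated arrays below both controls, 5 of 5, against 24.2% of all genes, although 0 of the 5 passed the threshold (2 at an unadjusted p under 0.05, limma). Their median change was -0.35. The mean of the 5 was 12.49 and 12.62 on the DMSO arrays and 12.03 and 12.08 on the MK-8776 arrays, with no overlap. AIMP1, a scaffold of the complex that also gives rise to a secreted cytokine, measured 13.31 and 13.51 in DMSO and 13.17 and 13.13 in MK-8776. It changed by -0.26 (SE 0.21, adjusted p = 0.573, limma), again with both treated arrays lower. The change stayed below 0 for each of these 6 genes in all 12 alternatives, but most of these could not turn a sign. Groups that do not overlap keep their direction with any 1 array left out. The variance models and the replicate block leave a change as it is. The steady sign is therefore no separate support.

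For the 11 cytosolic enzymes outside the complex the groups overlapped. Their mean was 12.95 and 12.80 on the DMSO arrays and 12.95 and 12.82 on the MK-8776 arrays. The treated arrays were higher in 1 of them, lower in 3 and overlapped the controls in 7, and the median change was 0.03. The difference between the complex enzymes and the others was not tested, since the lists were drawn up with earlier results of these data known.

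**Figure D3:**
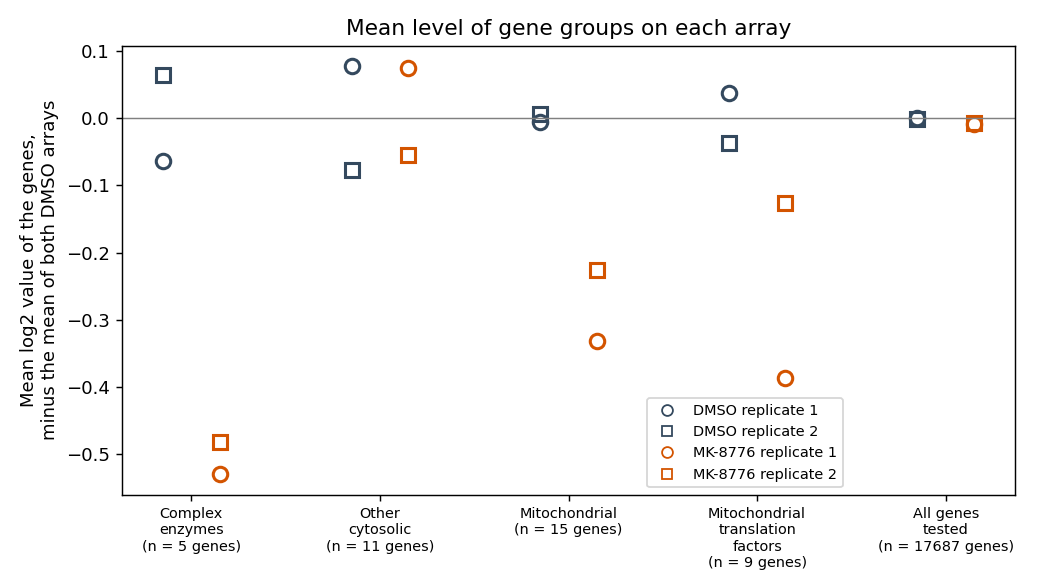
Mean log2 value of each gene group on each array, minus the group's mean over both DMSO arrays (y axis), for complex enzymes, other cytosolic enzymes, mitochondrial enzymes, mitochondrial translation factors and all genes tested; circles are replicate 1 and squares replicate 2, with DMSO dark and MK-8776 orange. The treated arrays lie below the controls for the complex enzymes and both mitochondrial groups and overlap them for the other cytosolic enzymes.

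Sorting the cytosolic enzymes by their link to ATF4 gave another split. The 9 measured genes listed as known ATF4 targets in many cell types were AARS1, CARS1, EPRS1, GARS1, IARS1, NARS1, SARS1, TARS1 and WARS1. Of these, 1 rose (WARS1), 0 fell and 8 did not pass. Of all genes, 1.66% rose and 2.02% fell, and a single call is not read as a result about the group. The median change of the 9 was 0.03, with 6 changes above 0 and 3 below. Of the 7 remaining cytosolic enzymes 0 passed, and 3 were lower at an unadjusted p under 0.05 (limma), against 10.2% of all genes. Their median was -0.35, and FARSA alone had a change above 0. The median difference between replicates 1 and 2 of the 9 listed targets was 0.2 in each group, larger than their median change. The split by ATF4 was not tested, and it overlaps the one by the complex. EPRS1 and IARS1 stand in both the ATF4 group and the complex, and KARS1, LARS1 and RARS1 of the remaining enzymes are also in the complex. The table held 39 promoters for 28 of the measured members. A TGATGNAAN match lay in 4 of the 39, or 10.3%, against 3.13% of all 35116 promoters. In AARS1 and IARS1 it read GTTGCATCA on the printed strand, 188 and 14 bases before the start, and in GARS1 it read ATTTCATCA, 34 bases before it; these 3 genes changed by 0.245, -0.195 and 0.03. YARS2, a mitochondrial enzyme gene, held the remaining match. CACGTG occurred in 3 of the 39, or 7.69%, before a start of EARS2, IARS1 and MARS2, against 6.34% of all promoters.

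Of the 15 mitochondrial enzymes 0 rose, 1 fell and 14 did not pass, against 1.66% of all genes that rose and 2.02% that fell. At an unadjusted p under 0.05 (limma), 0 were higher and 5 were lower, against 8.61% and 10.2% of all genes. The median change was -0.23, with 6 changes above 0 and 9 below. Both treated arrays were higher in 1 gene and lower in 7, against 24.0% and 24.2% of all genes. A change below -0.5 was seen in 5 of the 15, against 11.8% of all genes, and 0 of the 15 had a change above 0.5, against 9.71%.

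The 5 lower genes were WARS2, CARS2, NARS2, IARS2 and MARS2. CARS2, the cysteinyl enzyme gene, whose product also makes cysteine persulfides, measured 8.96 and 9.34 in DMSO and 8.41 and 8.30 in MK-8776. Its change was -0.795 (SE 0.22, adjusted p = 0.0996, limma). NARS2, the asparaginyl enzyme gene, measured 9.18 and 8.67 in DMSO and 8.23 and 8.20 in MK-8776. Here the controls were the more spread group, and the change was -0.71 (SE 0.24, adjusted p = 0.152, limma). IARS2, the isoleucyl enzyme gene, measured 11.32 and 11.42 in DMSO and 10.58 and 10.83 in MK-8776, and changed by -0.665 (SE 0.21, adjusted p = 0.136, limma). MARS2, the methionyl enzyme gene, measured 8.83 and 9.16 in DMSO and 8.31 and 8.41 in MK-8776, and changed by -0.635 (SE 0.22, adjusted p = 0.161, limma). In all 5 genes both treated arrays lay below both controls. The change stayed below 0 in all 12 alternatives, most of which could not turn the sign of such genes, so this is no separate support.

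The remaining 10 mitochondrial genes changed by between -0.39 and 0.34. VARS2 (valyl) and PARS2 (prolyl) changed by -0.39 and -0.355, both without overlap of the groups. LARS2 (leucyl, -0.23) and FARS2 (phenylalanyl, -0.20) had overlapping groups. LARS2 was the least steady of the members, at 6.04 and 5.56 in DMSO and 5.08 and 6.06 in MK-8776. RARS2, the arginyl enzyme gene, was the exception in the other direction, at 11.43 and 11.18 in DMSO and 11.61 and 11.68 in MK-8776, which gives a change of 0.34 (SE 0.21, adjusted p = 0.451, limma). HARS2 (histidyl, 0.175), EARS2 (glutamyl, 0.135), YARS2 (tyrosyl, 0.065), SARS2 (seryl, 0.035) and AARS2 (alanyl, 0.005) stayed close to 0 with overlapping groups. AARS2 and EARS2 lay under the median of all values (5.77) in both groups, and LARS2 and VARS2 lay under it in MK-8776, and no detection call was used for them.

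Set against each other, the cytosolic and the mitochondrial enzymes both had a median change below 0, and the difference between their means overlapped between the groups. The median changes differed by 0.0875, cytosolic minus mitochondrial, and by 0.02 without WARS1 and WARS2, a choice made after their values were seen. The mean of the cytosolic enzymes minus the mean of the mitochondrial enzymes was 4.91 and 4.83 on the DMSO arrays and 5.09 and 4.91 on the MK-8776 arrays. MK-8776 replicate 2 (4.908) thus lay between the controls (4.831 and 4.910), and the direction of the difference between the medians turned to -0.08 without MK-8776 replicate 1 and grew to 0.3725 without MK-8776 replicate 2. Each class by itself was lower on both treated arrays, with means of 12.81 and 12.74 against 12.66 and 12.59 for the cytosolic enzymes and of 7.90 and 7.91 against 7.58 and 7.68 for the mitochondrial enzymes. The mean over all genes was 6.87 on both DMSO arrays and 6.86 on both MK-8776 arrays. These are levels relative to all other RNA of the culture, and fewer cells of a kind and less RNA per cell cannot be told apart.

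Compared amino acid by amino acid, 14 pairings of a cytosolic with a mitochondrial gene could be made for 13 amino acids. In 7 pairings both changes had the same sign, 5 times below 0 and 2 times above it, and in 7 the signs were opposite. The cytosolic change was the higher in 8 pairings and the mitochondrial in 6, and the median difference was 0.0525. Tryptophan was the only amino acid of these with a difference above 1, at 2.06 between WARS1 and WARS2. Asparagine followed with 0.97 (NARS1 at 0.26, NARS2 at -0.71) and cysteine with 0.705 (CARS1 at -0.09, CARS2 at -0.795). In the opposite direction stood the beta subunit of the phenylalanyl enzyme with -0.86 (FARSB at -1.06, FARS2 at -0.20), arginine with -0.69 (RARS1 at -0.35, RARS2 at 0.34) and leucine with -0.685 (LARS1 at -0.915, LARS2 at -0.23). Serine showed the smallest difference, 0.03. No pairing was tested, and EPRS1 and FARS2 each enter 2 of them.

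**Figure D4:**
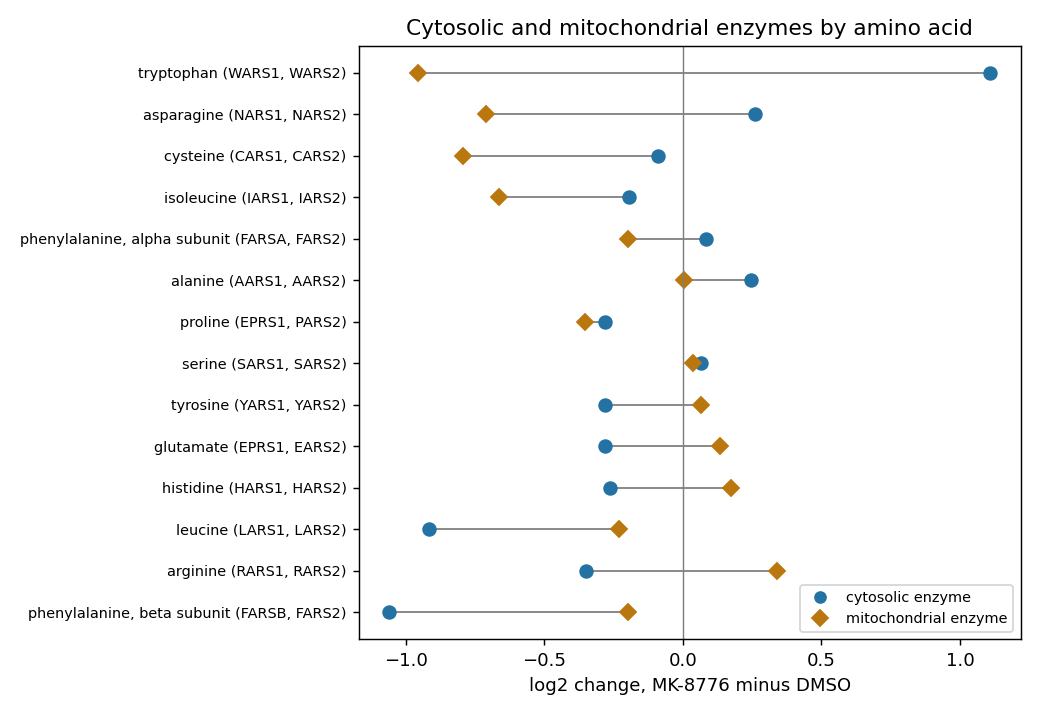
Change (log2, MK-8776 minus DMSO, x axis) of the cytosolic enzyme (circle) and the mitochondrial enzyme (diamond) for each amino acid, sorted by the difference between them. Tryptophan stands at the top with 1.11 against -0.955, and the other pairings spread to both sides, 8 with the cytosolic gene further right and 6 with the mitochondrial gene further right.

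Other genes that make, mature and use tRNA were taken from 7 lists, to be read against the 1.66% of all genes that rose and the 2.02% that fell. Of 26 measured genes of tRNA processing and ligation, 1 rose, 1 fell and 24 did not pass, with a median change of -0.048. Both called genes encode subunits of the RNase P and RNase MRP family, which trims the leader of precursor tRNAs. POP4 rose by 1.49 (SE 0.21, adjusted p = 0.0110, limma), from 8.29 and 8.44 to 9.96 and 9.75. RPP40 changed by -1.09 (SE 0.22, adjusted p = 0.0345, limma), from 9.89 and 10.15 to 8.82 and 9.04. Of 20 measured genes of RNA polymerase III, which transcribes tRNA genes, and of its factors, 0 rose, 2 fell and 18 did not pass, with a median of -0.018. The polymerase subunit genes POLR3D and POLR3K fell by 1.52 and by 1.20 on the log2 scale (SE 0.22 for each, adjusted p = 0.0121 and 0.0266, limma). Over the 12 alternatives the change ran from 1.385 to 1.595 for POP4 and from -1.22 to -0.96 for RPP40. For POLR3D it ran from -1.695 to -1.345 and for POLR3K from -1.355 to -1.045. Those with 1 array left out called few or no genes of any kind and cannot judge these 4 calls.

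The remaining lists gave 0 calls each, and their counts at an unadjusted p under 0.05 stand against 8.61% of all genes higher and 10.2% lower. Of 9 measured mitochondrial translation factors 1 was higher and 3 were lower at an unadjusted p under 0.05 (limma), and the median change was -0.285. The initiation factor gene MTIF2 changed by -0.87 (adjusted p = 0.0894) and MTRF1L, a release factor gene, by 0.775 (adjusted p = 0.132, limma). The treated arrays were lower in 6 of the 9 and higher in 1. In contrast, the 4 genes of mitochondrial tRNA charging without a synthetase and of formylation had a median of 0.378 (1 higher at an unadjusted p under 0.05, limma), with the amidotransferase genes GATB at 0.59 and QRSL1 at 0.44. This amidotransferase makes the glutaminyl-tRNA of mitochondria, which lack a synthetase for glutamine. Of 6 cytosolic elongation factor genes 1 was lower at an unadjusted p under 0.05 (limma), EEF2K, the kinase gene of elongation factor eEF2, at -1.16 (adjusted p = 0.108, limma), followed by EEFSEC at -0.29. Of 4 genes of tRNA export, proofreading and recycling ANKZF1 at -1.24 (adjusted p = 0.0818, limma) and DTD2 at -0.525 had the largest changes, the first with an unadjusted p under 0.05. Of 16 genes of the amino acid response 4 were higher and 4 lower at an unadjusted p under 0.05 (limma), with a median of 0.21. TRIB3 and PPP1R15A, both known targets of this response, had the largest changes, at 1.28 and 1.06, without passing (adjusted p = 0.0556 and 0.0585, limma). VLDLR and STC2 of the same list went the other way, at -0.98 and -0.85, also without passing. ATF4 itself was at -0.005 and ASNS at -0.19, both with overlapping groups.

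The labelled cell type was checked with marker lists. Of 8 measured promyelocyte and myeloid markers 7 lay above the median of all values in both groups. Their mean was 10.18 to 10.73 on the DMSO arrays and 9.53 to 9.94 on the MK-8776 arrays. In this list 2 genes fell, against 2.02% of all genes. They were CTSG at -2.2 (adjusted p = 0.00516) and PRTN3 at -2.005 (adjusted p = 0.0193, limma). MPO at -1.095 did not pass (adjusted p = 0.0514, limma). CD38, SPI1 and LYZ had changes above 0, at 0.1, 0.275 and 0.685, without passing. Markers of T and NK cells, B cells, erythroid cells and monocytes averaged 5.83 to 5.97, 6.99 to 7.19, 4.14 to 4.28 and 4.48 to 4.56 in DMSO and 5.77 to 5.84, 6.95 in both arrays, 4.39 to 4.65 and 4.62 to 4.96 in MK-8776. In these 4 lists 4 of 7, 2 of 4, 3 of 4 and 2 of 4 genes lay under the median of all values in both groups. Of the T and NK markers NKG7 rose by 1.23 (adjusted p = 0.0320) and CD3E fell by 1.38 (adjusted p = 0.0264), and of the monocyte markers CD14 rose by 1.37 (adjusted p = 0.0491, limma). Quantile normalization (0.0572) and testing every feature (0.0599) each ended the call of CD14. Over the alternatives the change ran from 0.97 to 1.48 for NKG7, from -1.685 to -1.075 for CD3E and from 0.92 to 1.82 for CD14. For CTSG it ran from -2.48 to -1.92 and for PRTN3 from -2.535 to -1.475. Fits with 1 array left out called few or no genes of any kind, so they cannot judge these calls. The B cell and erythroid lists gave 0 calls (1 B cell marker lower and 1 erythroid marker higher at an unadjusted p under 0.05, limma). No detection call was used here, and the part of these marker differences in the synthetase values was not tested.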

How the data were processed

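The deposited values are log2 expression values, 1 for each of 21448 features on each of 4 arrays. The authors made them with RMA and genome build hg38, per the submitters' processing notes. The settings of RMA were not given in the sources used here. The log2 scale was inferred from the range of values, 2.16 to 18.54, and precision is limited by having only 4 arrays. The platform annotation gave exactly 1 symbol for 17709 features. The other 3739 were without a single symbol, whether they had none or several, and were not named. Symbols were updated by gene number through RefSeq (GRCh38.p14), and the feature with the highest mean was kept for 20 genes with several.

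The fit covered all 17687 genes without a filter and used limma 3.58.1 under R 4.3.3, with moderated two-sided tests from eBayes (2 residual and 6.30 prior degrees of freedom), with Benjamini-Hochberg adjustment over all genes and a threshold of 0.05. An exact permutation of 2 against 2 arrays cannot go below p = 0.333. The scripts were tested on simulated data. Alternatives were other normalization, centring, filter, variance models, a replicate block, all features, the mean of a gene's features, the cytosolic class without GARS1 and KARS1, and each array left out.

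The members and lists were chosen with earlier results of these data known. Full values are given for members past the threshold and the 5 largest changes per class; of each list up to 4 genes past the threshold are named, or the 2 largest changes. Other members are given by their change.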

Additional observations from a re-analysis of the deposited data

How the results depend on the processing

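WARS1 and WARS2 kept their direction in all 12 alternatives and passed in 6 and 5 of them. Most of the 12 could not turn the sign of a gene whose groups do not overlap. After quantile normalization 1 cytosolic enzyme (LARS1) and 0 mitochondrial enzymes fell, and AARS2 turned to -0.0225. Among genes above the median level 2 cytosolic enzymes fell (FARSB and LARS1), and the median of the mitochondrial enzymes was -0.3725 and the difference between the classes 0.23, because 3 dim members left the comparison. The amino acid response list had 3 calls there in place of 0. A variance trend gave 1185 called genes in place of 652 and a robust trend 1162, each with 3 cytosolic enzymes that fell (FARSB, KARS1 and LARS1). With all features tested 0 cytosolic enzymes rose and 0 mitochondrial enzymes fell. Without GARS1 and KARS1 the cytosolic median stayed at -0.1425.

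The fit with a replicate block called 309 genes, with 0 cytosolic enzymes that rose and 0 mitochondrial enzymes that fell (WARS1 at adjusted p = 0.0677, WARS2 at 0.0789, limma). Of the other genes named, RPP40, POLR3K, QPRT, PUS1, NKG7, CD3E and CD14 also lost their call with the replicate block, at adjusted p from 0.0613 for NKG7 to 0.0835 for PUS1. The labels give the arrays only a shared number. Replicate 1 minus replicate 2 correlated across genes between the groups at 0.139.

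Leaving out each array in turn gave 0 to 34 called genes, and 0 cytosolic enzymes that rose and 0 mitochondrial enzymes that fell in each case (4 to 8 members at an unadjusted p under 0.05, limma). The median ran from -0.205 to -0.0625 for cytosolic enzymes, from -0.435 to -0.125 for mitochondrial enzymes and from -0.08 to 0.3725 for their difference. Members near 0 changed sign: GARS1 (-0.10 to 0.16), SARS1 (-0.12 to 0.25), TARS1 (-0.11 to 0.14), AARS2 (-0.20 to 0.21), EARS2 (-0.07 to 0.34), FARS2 (-0.435 to 0.035), HARS2 (-0.105 to 0.455), LARS2 (-0.72 to 0.26), SARS2 (-0.12 to 0.19) and YARS2 (-0.135 to 0.265). The cause was not tested. Each such fit has 1 array in a group, whose spread is taken to be that of the other group.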

Other observations

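Genes of tryptophan uptake and breakdown were looked up after the values of WARS1 and WARS2 had been seen. Of 12 measured, 1 rose, 2 fell and 9 did not pass, against 1.66% of all genes that rose and 2.02% that fell. KYNU, which encodes kynureninase, an enzyme of tryptophan breakdown, rose by 2.79 (SE 0.32, adjusted p = 0.00595, limma), from 4.21 and 3.20 in DMSO to 6.55 and 6.44 in MK-8776. QPRT, which encodes the enzyme that leads this pathway into NAD synthesis, changed by -1.22 (adjusted p = 0.0315), and SLC16A10, a transporter gene for aromatic amino acids, by -1.38 (adjusted p = 0.0149, limma). SLC3A2, the heavy chain gene of a large neutral amino acid transporter, was at 0.695 (adjusted p = 0.144, limma). KYNU lay under the median of all values in DMSO. Over the alternatives its change ran from 2.285 to 3.295. That of QPRT ran from -1.465 to -0.975 and that of SLC16A10 from -1.475 to -1.285. Fits with 1 array left out called few or no genes of any kind and cannot judge these 3 calls.

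A list of genes known to respond to interferon gamma, also chosen after the values of WARS1 were seen, held 0 rises and 1 fall among 13 measured, with 1 gene higher and 3 lower at an unadjusted p under 0.05 (limma), against 8.61% and 10.2% of all genes. CXCL10, a chemokine gene, changed by -1.37 (adjusted p = 0.0285, limma). The members went both ways: ICAM1, an adhesion molecule gene, was at 1.41 (adjusted p = 0.0545), GBP5 at -0.84 (adjusted p = 0.0662) and PSMB9 at -0.785 (adjusted p = 0.0812, limma), none of which passed. IRF1, GBP1 and IDO1 were at 0.32, 0.46 and 0.43. The median of the list was -0.21.

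Of 10 measured genes that modify mitochondrial tRNAs, chosen in the same way, 0 rose and 1 fell, against 1.66% and 2.02% of all genes. At an unadjusted p under 0.05 (limma), 0 were higher and 2 lower, against 8.61% and 10.2% of all genes. The gene that fell was PUS1, a pseudouridine synthase gene, at -1.12 (adjusted p = 0.0378, limma), with a list median of -0.24. Over the alternatives the change of PUS1 ran from -1.31 to -0.93 and that of CXCL10 from -1.64 to -1.1. Fits with 1 array left out called few or no genes of any kind and cannot judge these calls. TARS3, a further threonyl-tRNA synthetase gene outside the listed members, was at -0.385 (adjusted p = 0.371, limma).

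Among the 9 measured ATF4 targets of the cytosolic class the array numbered 1 was higher than the array numbered 2 in both groups in 8, against 27.7% of all genes. The median difference was 0.20 in DMSO and 0.20 in MK-8776. For the 7 other cytosolic enzymes this held in 1 gene, with medians of -0.11 and -0.08. Of the 16 measured genes of the amino acid response it held in 3, with medians of 0.21 in DMSO and -0.03 in MK-8776.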
